A study of Arabidopsis thaliana with 4 samples.

Results

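The widest peaks of LEC1-GFP on the Arabidopsis genome were examined in bent cotyledon-stage seeds. Broad peaks were chosen by their width in the authors' deposited list, which had to be at least 550 bp with both end positions counted. Of 6356 peaks, 350 met this rule, which is 5.51% of the list, and the remaining 6006 were at most 500 bp wide because peak edges lay on a grid of 50 bp. Since width was the value that selected these regions, width and score are given below as descriptions only.

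The peaks come from chromatin immunoprecipitation sequencing (ChIP-seq), which reads the DNA fragments that an antibody pulls down together with a protein fixed to them. Seeds came from plants homozygous for the lec1-1 mutation and for a transgene, LEC1:LEC1-GFP:LEC1, that makes LEC1 fused to green fluorescent protein between LEC1 flanking sequences. There were 2 biological replicates precipitated with an anti-GFP antibody and 2 of input, which is sonicated chromatin set aside without precipitation, and both groups carried the same mutation and transgene. Whole seeds hold embryo, endosperm and seed coat, so a peak cannot be assigned to one of these tissues. All values below come from 1 peak list for the whole series, with no values per sample, so they carry no replicate error and the read depth is unknown. Intervals are 95% exact binomial (Clopper-Pearson) intervals, which cover counting error only and treat peaks or genes as independent.

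LEAFY COTYLEDON1 (LEC1) is an NF-YB subunit of NF-Y, a trimeric transcription factor that recognises CCAAT elements in DNA. In seeds it acts with LEC2, FUS3 and ABI3 in embryo development and in maturation, when storage reserves are laid down and the embryo acquires desiccation tolerance. It is also known to act together with bZIP factors of the abscisic acid pathway. In ChIP-seq, sonicated fragments have a length of their own, 100 to 500 bp in these libraries, so the width of a peak reflects fragment length as well as the stretch of DNA that is bound.

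The median broad peak was 600 bp wide, quartiles were 550 and 700 bp, and the widest reached 1650 bp. Together they held 231 kb, or 13.9% of the sequence under peaks. Each peak carries a score from the authors whose scale no source used here explains. Broad peaks scored between 2.34 and 4.51 with a median of 3.26, against 2.42 for narrower peaks. Of the broad peaks, 344 scored at or above the median of all peaks (2.45) and 6 scored below it. Among the 350 highest scores in the list 131 belonged to broad peaks, and among the 10 highest 7 did. Across all 6356 peaks width and score went together (Spearman's rho 0.86, a description over regions of the same libraries). Among the 350 broad peaks alone they were nearly unrelated (rho 0.10), and the widest peak, with a score of 3.08, lay below the broad median.

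**Figure D1:**
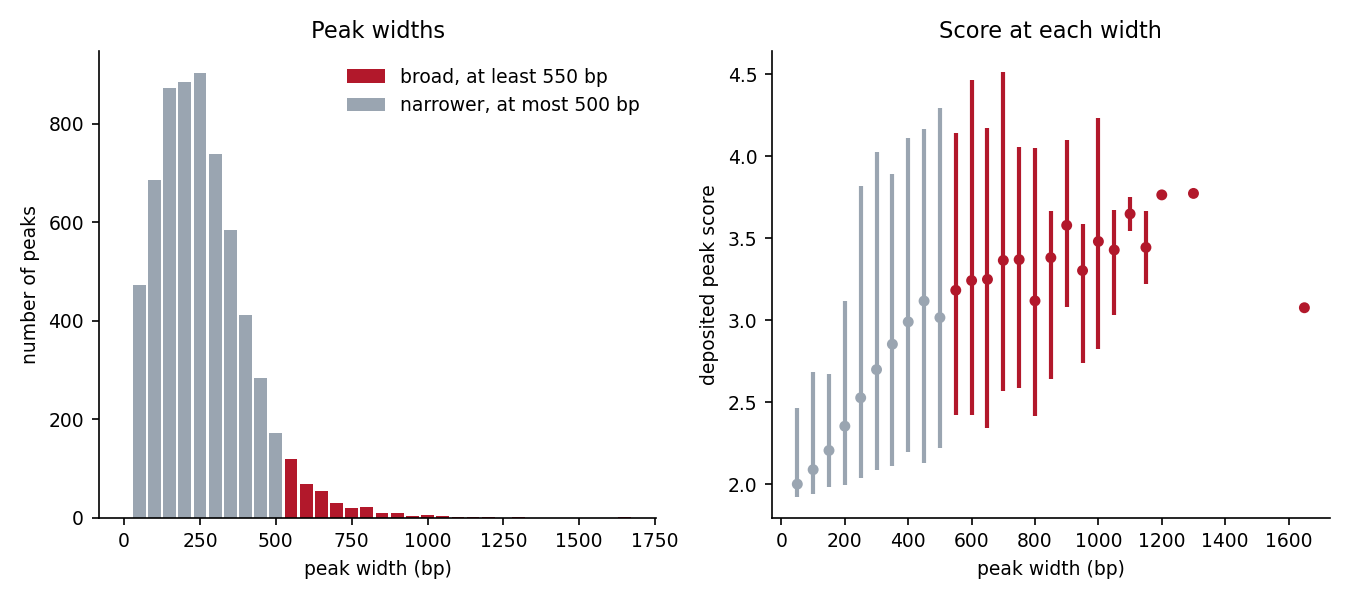
Number of LEC1-GFP peaks at each width (left, width in bp) and the deposited score at each width (right, points are medians and lines run from the lowest to the highest score); broad peaks of at least 550 bp are red and narrower peaks grey. By width class the median score is higher at greater width, at 2.65 for peaks of 250 to 350 bp, 3.03 for 400 to 500 bp, 3.23 for 550 to 600 bp, 3.30 for 650 to 800 bp and 3.45 for 850 bp or more. Single widths are out of order on both sides of the limit, such as 3.12 at 450 bp and 3.02 at 500 bp. Above the limit the median is 3.37 at 750 bp, 3.12 at 800 bp and 3.08 at 1650 bp.

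The limit fell within a continuous range of widths. The 119 peaks of 550 bp, just inside it, had a median score of 3.18, and the 172 peaks of 500 bp, just outside, had a median score of 3.02. The highest-scoring peaks of 550 bp were chr2:16705801-16706350 (TAIR10), near AT2G40004, with a score of 4.15, and chr1:2976651-2977200, inside CRT1b, a calreticulin gene, with a score of 4.14. The highest-scoring peaks of 500 bp were chr3:18821801-18822300, with no protein-coding gene within 1000 bp and a score of 4.29, and chr1:9899751-9900250 outside LEC2, with a score of 4.17. The LEC2 peak, 1 grid step below the limit, scored above the upper quartile of broad peaks (3.55).

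Most broad peaks lay outside genes, close to a gene end. The midpoints of 205 broad peaks (58.6%, 53.2 to 63.8%) lay outside protein-coding genes and within 1000 bp of an end, those of 89 (25.4%, 20.9 to 30.3%) lay inside a gene, and those of 56 (16.0%, 12.3 to 20.3%) lay farther than 1000 bp from any protein-coding gene. Over all 6356 peaks the same places held 49.4%, 33.9% and 16.6%. Against the 6006 narrower peaks, the share outside within 1000 bp was higher for broad peaks (58.6% against 48.9%, two-sided Fisher's exact test, Benjamini-Hochberg adjusted over 3 places, adjusted p = 0.00072). The share inside genes was lower (25.4% against 34.4%, adjusted p = 0.00072, Fisher's exact test). For the share farther away the test gave no difference past the threshold (16.0% against 16.7%, adjusted p = 0.825, Fisher's exact test). These tests treat the peaks of 1 list as independent, also where they lie close together, and carry no replicate error. The annotation used gives no strand, so the upstream and the downstream end of a gene were counted together.

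Against narrower peaks of high score no difference passed the threshold. The 350 narrower peaks with the highest scores had a median score of 3.46, above the 3.26 of the broad peaks, and were 400 bp wide at the median. The share inside genes was 25.4% (20.9 to 30.3%) in both sets, with 89 peaks each. Outside within 1000 bp broad peaks had 58.6% and high-scoring narrower peaks 55.7% (50.3 to 61.0%, adjusted p = 0.738, Fisher's exact test), and farther away 16.0% and 18.9% (14.9 to 23.4%, adjusted p = 0.738, Fisher's exact test). By width, the share inside genes was 36.0% at 50 to 200 bp, 34.6% at 250 to 350 bp, 28.6% at 400 to 500 bp, 26.1% at 550 to 600 bp, 25.4% at 650 to 800 bp and 22.2% in the 36 peaks of 850 bp or more.

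**Figure D2:**
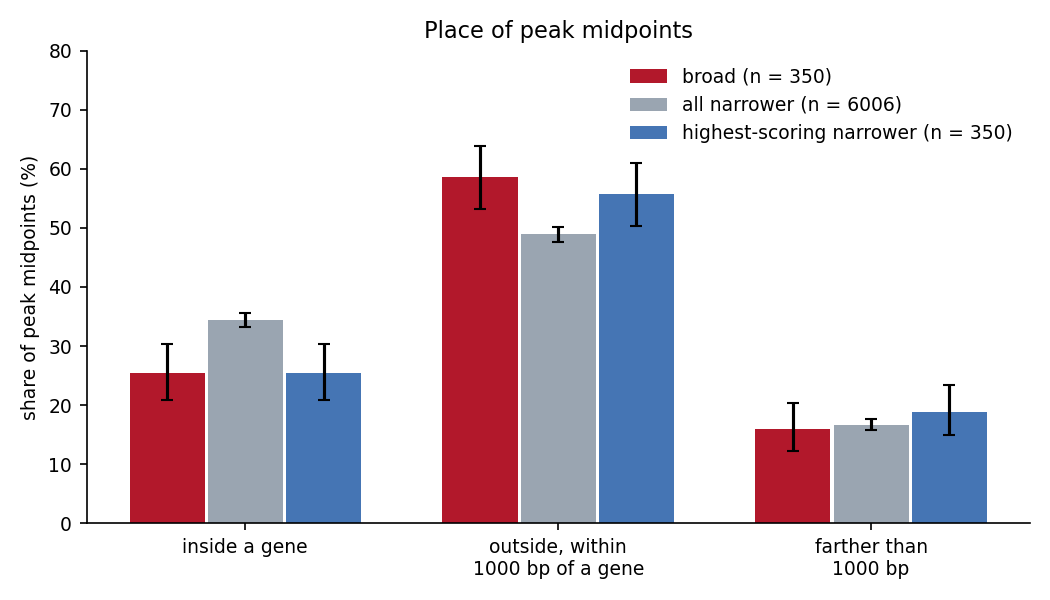
Share of peak midpoints (%) inside protein-coding genes, outside them within 1000 bp of an end, and farther away, for broad peaks, all narrower peaks and the 350 highest-scoring narrower peaks; error bars are 95% exact binomial intervals. Broad peaks have fewer midpoints inside genes than all narrower peaks (25.4% against 34.4%) and the same share as the highest-scoring narrower peaks.

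A smaller share of broad peaks than of narrower peaks had a midpoint within 100 bp of a gene end, inside or outside. The 100 bp just inside an end held 21 broad peaks (6.0%, 3.75 to 9.03%) against 13.9% of all narrower peaks (13.0 to 14.8%), and the first 100 bp outside held 41 (11.7%) against 15.7%. The stretch from 300 to 600 bp outside held 60 broad peaks (17.1%, 13.3 to 21.5%) against 9.61% of all narrower peaks (8.87 to 10.4%) and 10.9% of the highest-scoring narrower peaks (7.80 to 14.6%). A wide peak that touches a gene end has its midpoint farther from that end than a narrow one, and the part of this in the distances was not tested.

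**Figure D3:**
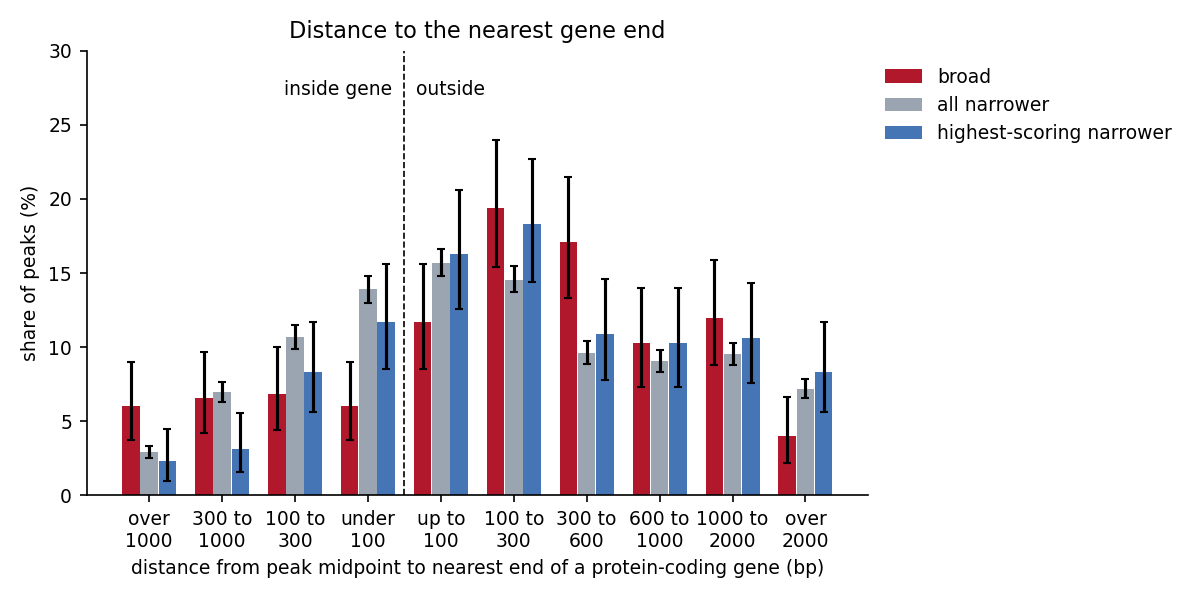
Share of peaks (%) by distance in bp from the peak midpoint to the nearest end of a protein-coding gene, inside the gene to the left of the dashed line and outside to the right; error bars are 95% exact binomial intervals. Broad peaks are below all narrower peaks in the first 100 bp on either side of a gene end and above them from 300 to 600 bp outside (17.1% against 9.61%).

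A small set of broad peaks lay deep inside genes. The midpoints of 21 (6.0%, 3.75 to 9.03%) were more than 1000 bp inside a gene, against 2.90% of all narrower peaks (2.49 to 3.35%) and 2.29% of the highest-scoring narrower peaks (0.992 to 4.45%); this difference was not tested. Their median score of 2.78 was below that of the 68 broad peaks less deep inside genes (3.23) and that of the 205 outside within 1000 bp (3.25). The deep peaks, named here after their values were seen, included those in AG, the floral homeotic gene AGAMOUS (550 bp, score 2.68), in GA1, the gene of ent-copalyl diphosphate synthase, which starts gibberellin synthesis (550 bp, score 2.66), in CKX7, a cytokinin oxidase gene (550 bp, score 2.53), in TT7, the flavonoid 3'-hydroxylase gene (550 bp, score 2.60), in ABCG25, an abscisic acid exporter gene (600 bp, score 2.43), and in CSLA02, a glucomannan synthase gene (950 bp, score 3.30).

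Of the broad peaks, 41 (11.7%, 8.54 to 15.6%) had no protein-coding gene within 1000 bp of either edge, against 15.0% of narrower peaks (14.1 to 15.9%). Wider peaks reach farther by this measure, so the value that chose them enters these shares, and no difference is read from them. The median score of these 41 was 3.49. The widest of them, chr5:24905951-24907150, measured 1200 bp with a score of 3.76. For 31 of the 41, no annotated feature of any kind lay within 1000 bp, and 7 had a long noncoding RNA there. The midpoints of 14 broad peaks (4.0%, 2.20 to 6.62%) were more than 2000 bp from any protein-coding gene, against 7.18% of narrower peaks (6.54 to 7.86%). Intergenic stretches that held a broad midpoint had a median length of 2680 bp, and those that held a narrower one 2620 bp.

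Broad peaks were found on all 5 chromosomes, with counts from 42 on chromosome 2 to 94 on chromosome 1. As a share of the peaks on each chromosome they ran from 4.30% (3.12 to 5.77%) on chromosome 2 to 6.49% (5.03 to 8.23%) on chromosome 4, and these intervals overlap. The gene-poor 25% of 500 kb windows (60 of 240) held 13 broad peaks (3.71%, 1.99 to 6.27%) and 7.79% of narrower peaks (7.13 to 8.50%), a difference that was not tested.

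Some broad peaks lay side by side. Another peak of any width had its midpoint within 3000 bp of 163 broad peaks (46.6%, 41.3 to 52.0%), compared with 40.4% of narrower peaks (39.2 to 41.7%) and 45.1% of the highest-scoring narrower peaks (39.8 to 50.5%). A second broad peak had its midpoint within 3000 bp of 21 broad peaks (6.0%, 3.75 to 9.03%), and a broad peak lay as near to 3.5% of narrower peaks (3.05 to 3.99%) and 3.71% of the highest-scoring narrower peaks (1.99 to 6.27%), shares that were not tested. The 21 broad peaks formed 9 pairs and 1 run of 3. The run of 3, at chr5:23898151-23898950, chr5:23899251-23899850 and chr5:23900151-23900700, had widths of 800, 600 and 550 bp and scores of 3.80, 3.55 and 3.44. It lay between HAI1, a protein phosphatase 2C gene of abscisic acid signalling that is nearest to the first of the 3, and AT5G59230, which is nearest to the others and within 1000 bp of the third alone. HAI1 has a further broad peak of 800 bp inside it (score 2.70). Pairs lay at AFP1 (700 and 600 bp, scores 3.60 and 3.71), at CBF1 (700 and 550 bp, scores 2.96 and 3.73), at LBD40 (550 and 600 bp, scores 3.40 and 3.32) and between AOX1A and TIC (1000 and 900 bp, scores 3.48 and 3.12).

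Genes were assigned to a broad peak when the peak overlapped them or had an edge within 1000 bp of them. By this measure 452 of 27444 protein-coding genes, or 1.65%, had a broad peak, and 24.6% had a peak of any width. Of the 6739 genes with any peak, 6.71% had a broad one. A single gene was in reach of 170 broad peaks, 128 had 2 genes, and 11 had 3 or more, so for 39.7% of broad peaks the gene concerned cannot be told from its neighbour by position. Among genes named below, LRB1, SCPL49, ATMPK13, XIB, DXR, ERF4 and HB-8 had broad peaks whose nearest gene was a neighbour. The same held for SPL7, PCL1, GA3OX4, EXPB3, XTH33, CESA2 and PIP1A. The broad peaks at AOX1A and PIP2B and the 700 bp peak at AFP1 had midpoints farther than 1000 bp from any protein-coding gene. There were 8 genes with 2 broad peaks and 144 genes with both a broad and a narrower peak.

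The widest peak of all, 1650 bp at chr2:18998701-19000350 with a score of 3.08, lay outside genes between LRB1, which encodes a BTB-domain protein of light signalling, and GBF3, which encodes a G-box-binding bZIP factor. Next came a peak of 1300 bp (score 3.77) between SCPL49, a serine carboxypeptidase-like gene, and SPD1, a gene needed for plastid development in seedlings. Peaks of 1150 bp lay outside ABF3, an abscisic acid-responsive bZIP factor gene (score 3.67), and ACR8, a gene for a protein with ACT domain repeats (score 3.22). Peaks of 1100 bp lay inside AT3G62695 and within reach of its neighbour ATL5, a RING finger gene (score 3.75), and near GA20OX3, a gibberellin 20-oxidase gene (score 3.54). Those of 1050 bp were at ATMPK13, a MAP kinase gene (score 3.43), MSL6, a gene of the mechanosensitive channel family (score 3.03), and EDL3, an F-box gene of abscisic acid signalling (score 3.67). Among the 15 widest peaks, those of 1000 bp with a named gene lay near AOX1A, the gene of a mitochondrial alternative oxidase (score 3.48), and near XIB, a myosin gene (score 2.83).

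The highest score in the list, 4.51, belonged to a broad peak of 700 bp at chr3:11383851-11384550, outside AFP3, which encodes a protein that binds the bZIP factor ABI5. It was followed by peaks of 600 bp near RABA5a, a small GTPase gene (score 4.47), and near ERD10, a dehydrin gene (score 4.47). The broad peaks at CRT1b (score 4.14), at DXR, an enzyme gene of plastid isoprenoid synthesis (score 4.13), and at CRF3, a cytokinin response factor gene (score 4.12), all measured 550 bp. The peak at DXR was shared with AT5G62800, its nearest gene. The widest and the highest-scoring broad peaks were mostly different: of the 15 widest and the 10 highest-scoring, 1 peak was in both groups, a peak of 1000 bp with a score of 4.24 near AT3G07255.

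Among 33 gene lists, the largest share with a broad peak was in abscisic acid signalling, the pathway in which hormone receptors inhibit clade A phosphatases and so free SnRK2 kinases to act on bZIP factors. Of its 29 genes 9 had a broad peak (31.0%, 15.3 to 50.8%), beside 1.65% of all protein-coding genes, and the widest peaks of its 20 members with any peak had a median of 475 bp, beside 250 bp for all 6739 genes with a peak. Of those 20 members 45.0% had a broad peak, beside 6.71% of all genes with a peak. Counted by peak midpoint or by nearest gene, 7 of the 29 had one. The lists were drawn up with earlier results of these data known, and no test was made of them.

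Within the pathway, broad peaks were found at the phosphatases, the bZIP factors and the ABI5-binding proteins. All 4 genes of the AFP family, whose proteins bind ABI5 and restrain abscisic acid responses, had one. AFP2 had a peak of 800 bp (score 4.05), AFP3 and AFP1 had peaks of 700 bp (scores 4.51 and 3.60), and TMAC2, also called AFP4, had one of 550 bp (score 3.80). AFP1 had a second broad peak of 600 bp. Of 9 phosphatase genes, 3 had a broad peak: HAI1 (800 bp, score 2.70, inside the gene), ABI1 (700 bp, score 3.10) and HAB2 (550 bp, score 3.18). The peak at ABI1 was shared with the neighbouring disease resistance gene RPS2, its nearest gene. Those at HAB2 and AFP2 were shared with AT1G17545 and AT1G13730. Of the 4 ABF genes, ABF3 (1150 bp) and ABF2 (550 bp, score 3.15) had a broad peak, while the widest peaks at ABF1 and ABF4 measured 450 and 350 bp. The peak at ABF2 was shared with AT1G45230, its nearest gene. At the 9 receptor genes no peak was broad, 6 had no peak and the other 3 had peaks of 100 to 350 bp. Of the 3 SnRK2 kinase genes OST1 alone had a peak, of 300 bp. None of the 13 genes of abscisic acid synthesis and breakdown had a broad peak (upper limit 24.7%), and 8 had a narrower one of up to 350 bp. Over all protein-coding genes 1.65% had a broad peak and 24.6% had any peak. No lack of broad peaks is therefore shown for these 13 genes, nor for the few receptor and kinase genes.

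**Figure D4:**
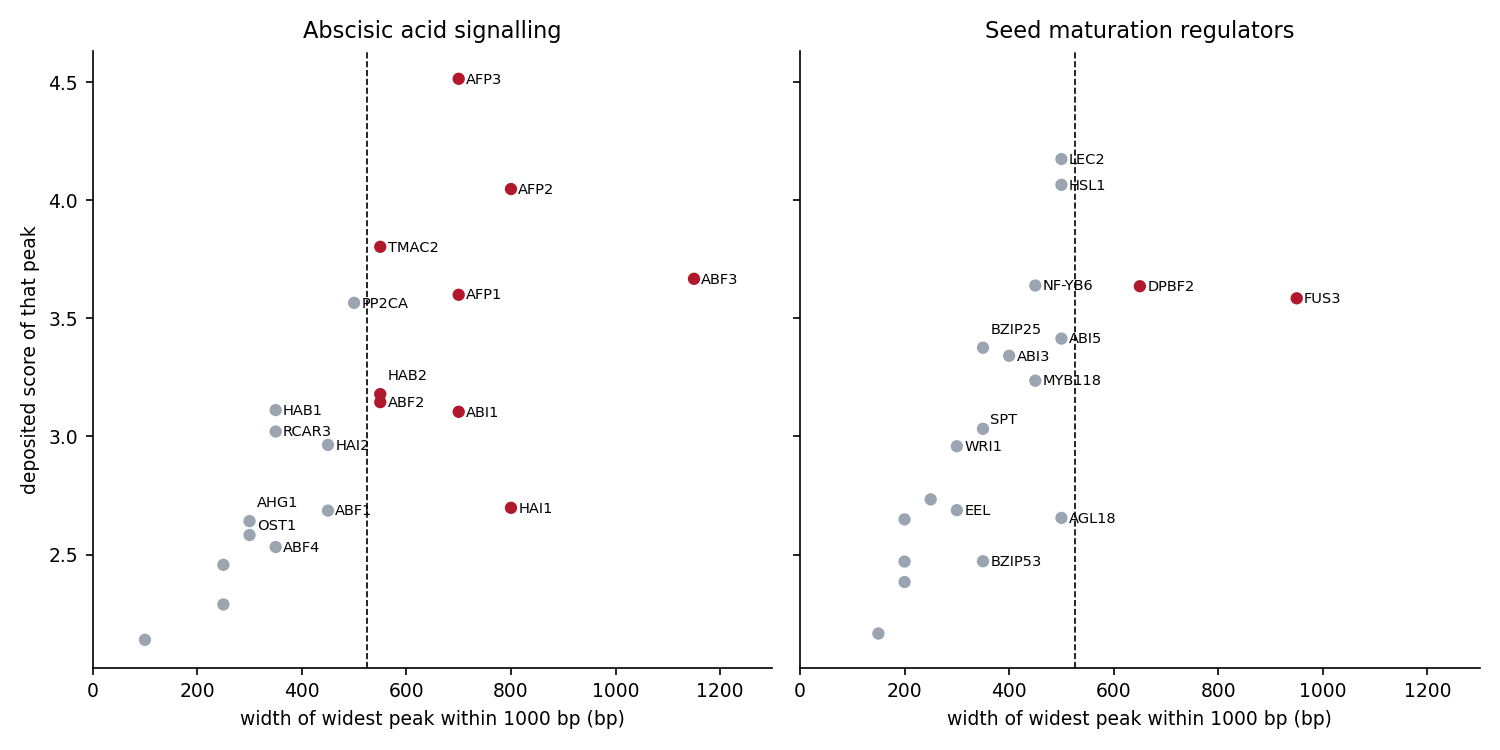
Width (bp) and deposited score of the widest peak within 1000 bp of each gene of abscisic acid signalling (left) and each regulator of seed maturation (right), for genes with a peak; broad peaks are red, the dashed line marks the limit and genes with peaks of 300 bp or more are named. ABF3 and FUS3 carry the widest peaks of their lists (1150 and 950 bp), and LEC2, HSL1, ABI5, AGL18 and PP2CA sit 1 grid step below the limit at 500 bp.

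Of 25 regulators of seed maturation, 19 had a peak and 2 had a broad one (8.0%, 0.984 to 26.0%). Over all protein-coding genes 24.6% had a peak and 1.65% had a broad one. FUS3, the B3-domain factor of embryo maturation, had a peak of 950 bp inside the gene at chr3:9855601-9856550 (score 3.59). DPBF2, also known as bZIP67, a seed bZIP factor that works with LEC1 and L1L, had one of 650 bp at chr3:16081751-16082400 (score 3.64). The other master regulators had narrower peaks, of 500 bp at LEC2 (score 4.17), 400 bp at ABI3 (score 3.34) and 150 bp at LEC1 itself (score 2.17). ABI5, the bZIP factor of the desiccating seed, had a peak of 500 bp (score 3.41), and NF-YB6, the LEC1-LIKE gene, one of 450 bp (score 3.64). Among the 36 NF-Y subunit genes, NF-YB2 had a broad peak (700 bp, score 3.57).

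Gibberellin promotes germination and is known to act against abscisic acid in seeds. Of 29 gibberellin genes 5 had a broad peak (17.2%, 5.85 to 35.8%, beside 1.65% of all protein-coding genes), with 4 peaks among them, and the median widest peak of the 14 with any peak was 300 bp. By group, a broad peak was found at 1 of 5 genes for 20-oxidases, 2 of 4 for 3-oxidases and 1 of 5 of early synthesis. The receptors had one at 1 of 3 genes. Of the 20-oxidase genes 4 had no peak of any width. GA20OX3 had a peak of 1100 bp (score 3.54), whose midpoint lay farther than 1000 bp from any protein-coding gene. The receptor gene GID1B had one of 800 bp (score 3.48). GA3OX2 and GA3OX4 shared one of 550 bp that lies between them (score 3.07), and GA1 had one of 550 bp inside the gene (score 2.66). Counted by midpoint or by nearest gene, 4 of the 29 had a broad peak. Of 7 genes for 2-oxidases, which inactivate the hormone, 2 had a peak, of at most 200 bp. Of 5 DELLA repressor genes 4 had a peak, of 100 to 300 bp. Over all protein-coding genes 24.6% had any peak, and groups this small show no lack of broad peaks. A broad peak of 550 bp at chr1:5146651-5147200 (score 2.88) was nearest to the DELLA gene GAI but more than 1000 bp from it.

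Trehalose 6-phosphate is a sugar signal made by the TPS enzymes and removed by the TPP enzymes, and it is needed for embryo maturation. Of 21 such genes 6 had a broad peak (28.6%, 11.3 to 52.2%, beside 1.65% of all protein-coding genes), 13 had any peak (24.6% of all genes did), and their widest peaks had a median of 450 bp. Among the 10 phosphatase genes, ATTPPA had a broad peak of 700 bp (score 3.51), TPPG one of 600 bp (score 3.96), TPPF one of 600 bp (score 3.37) and TPPJ one of 550 bp (score 3.25). Among the 11 synthase genes, TPS7 had a broad peak of 750 bp (score 3.25) and TPS11 one of 550 bp (score 4.12). Both belong to the TPS class whose enzyme activity is not established. The peaks at TPPF and TPS11 had midpoints farther than 1000 bp from any protein-coding gene. Counted by midpoint, 4 of the 21 genes had a broad peak. TPS1, the synthase needed for embryo maturation, had no peak within 1000 bp.

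Genes of 10 transcription factor families, 732 in all, had a broad peak in 32 cases (4.37%, 3.01 to 6.12%), and 276 had any peak. Over all protein-coding genes 1.65% had a broad peak and 24.6% had any peak. The AP2/ERF list held 8 of 82 (9.76%, 4.31 to 18.3%). Among them were ERF8 (950 bp, score 2.74) and ERF4 (850 bp, score 3.48), which encode repressors. The others were CRF2, CRF3, CRF4, RAP2.10, and CBF1 (700 bp, score 2.96) and CBF4, which belong to the cold and drought factors. The bZIP list held 4 of 57, namely GBF3, ABF3, GBF2 (600 bp, score 2.79) and ABF2. The NAC list held 5 of 96 (5.21%, 1.71 to 11.7%). Among them were the stress-induced factors NAC3 (800 bp, score 3.68) and RD26 (800 bp, score 3.38), and NAC102 (550 bp, score 3.35). NAC076, a vessel factor, was another, at a peak (650 bp, score 3.76) whose midpoint lay inside its neighbour AT4G36170. The Dof and B-box list held 5 of 48 (10.4%, 3.47 to 22.7%). Among them were BBX28 (800 bp, score 3.06), OBP4 (700 bp, score 3.40), COL4 (650 bp, score 3.30) and COL9 (600 bp, score 3.41).

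The TCP, SPL and GRF list held 3 of 43 (6.98%, 1.46 to 19.1%), TCP9 (750 bp, score 3.02), GRF4 (600 bp, score 2.72) and the copper-response factor gene SPL7 (550 bp, score 2.86). The MYB list held 2 of 144, MYB11 (700 bp, score 3.24), a flavonol regulator, and MYB74 (550 bp, score 3.62). The homeobox list held 2 of 95, HB-8 (650 bp, score 2.70) and PHB (650 bp, score 2.62), both of the HD-ZIP III class of polarity and vascular regulators. The bHLH list held 1 of 62, ICE1 (550 bp, score 2.73), a factor of endosperm breakdown and stomatal development, and the WRKY list held 1 of 69, WRKY8 (700 bp, score 3.07). These shares, 1.39 to 2.11% for the MYB, WRKY, bHLH and homeobox lists, were near the 1.65% of all genes.

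Cytokinin genes had a broad peak in 5 of 52 cases (9.62%, 3.20 to 21.0%, beside 1.65% of all protein-coding genes). Of the 12 cytokinin response factors, which are AP2/ERF factors, CRF2 (700 bp, score 3.78), CRF3 (550 bp, score 4.12) and CRF4 (550 bp, score 3.18) had one, and 4 others had peaks of 50 to 450 bp. The synthesis gene IPT5 (550 bp, score 3.14) and the breakdown gene CKX7 completed the list's 5. Of the 26 clock genes 3 had a broad peak (11.5%, 2.45 to 30.2%): TIC (900 bp, score 3.12), GI (650 bp, score 3.39) and PCL1, also called LUX, a subunit gene of the evening complex (550 bp, score 3.69). Of 56 auxin response genes 1 had a broad peak (1.79%, near the 1.65% of all genes), the receptor gene TIR1 (650 bp, score 3.43).

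Storage protein genes, 11 in the list, had peaks in 8 cases and no broad one (upper limit 28.5%), and their widest peak measured 450 bp. The same held for 40 genes of oil bodies and oil synthesis, of which 23 had a peak, with a widest of 450 bp (upper limit 8.81%). Since 1.65% of all genes had a broad peak, counts of 0 in lists of this size are near the background. A peak of any width was found at 24.6% of all protein-coding genes. Of the 61 genes of photosynthesis and chlorophyll synthesis, 51 had a peak and 2 had a broad one (3.28%, 0.400 to 11.3%): POR C, a protochlorophyllide oxidoreductase gene (550 bp, score 3.48), and PSBR, a photosystem II subunit gene (550 bp, score 2.76). Of the photosynthesis genes with a peak, 3.92% had a broad one, beside 6.71% of all genes with a peak. This share rests on 2 genes and was not tested, so no lack of broad peaks is read from it. Of 25 genes of late embryogenesis and dehydration 4 had a broad peak (16.0%, 4.54 to 36.1%): the dehydrin genes ERD10 (600 bp, score 4.47) and ERD14 (600 bp, score 3.75), M10 (600 bp, score 3.38, inside its neighbour SSL2) and HVA22B (550 bp, score 3.02).

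No gene had a broad peak among 108 transporters of sugars, amino acids and peptides, 28 heat shock factors and proteins, 25 ethylene signalling genes, 22 cytosolic ribosomal protein genes or 16 brassinosteroid genes. The upper limits of these shares ran from 3.36% for the transporters to 20.6% for the brassinosteroid genes, all above the 1.65% of all genes, so no lack of broad peaks is shown. Cell wall genes had one in 6 of 141 cases (4.26%, 1.58 to 9.03%), CSLA02, EXPB3 (750 bp, score 3.37), XTH9 (600 bp, score 2.93), XTH33 (600 bp, score 2.59), CESA2 and XTH7. Nitrate and mineral uptake genes had one in 2 of 87 cases, the zinc and iron transporter genes ZIP4 (700 bp, score 3.26) and IRT3 (550 bp, score 3.17). The midpoints of both peaks lay inside a neighbouring ferredoxin gene, FD1 and FED A, which were also their nearest genes. The kinase list held 1 of 119, CPK28 (650 bp, score 2.34), whose peak had the lowest score of all broad peaks. The constitutive genes held 1 of 12, GAPC1 (550 bp, score 3.44), the defence genes 1 of 18, RPS2, at the peak it shares with ABI1, and the seed coat and endosperm genes 1 of 27, ICE1. Over all 33 lists together 75 of 1672 distinct genes had a broad peak (4.49%, 3.54 to 5.59%).

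**Figure D5:**
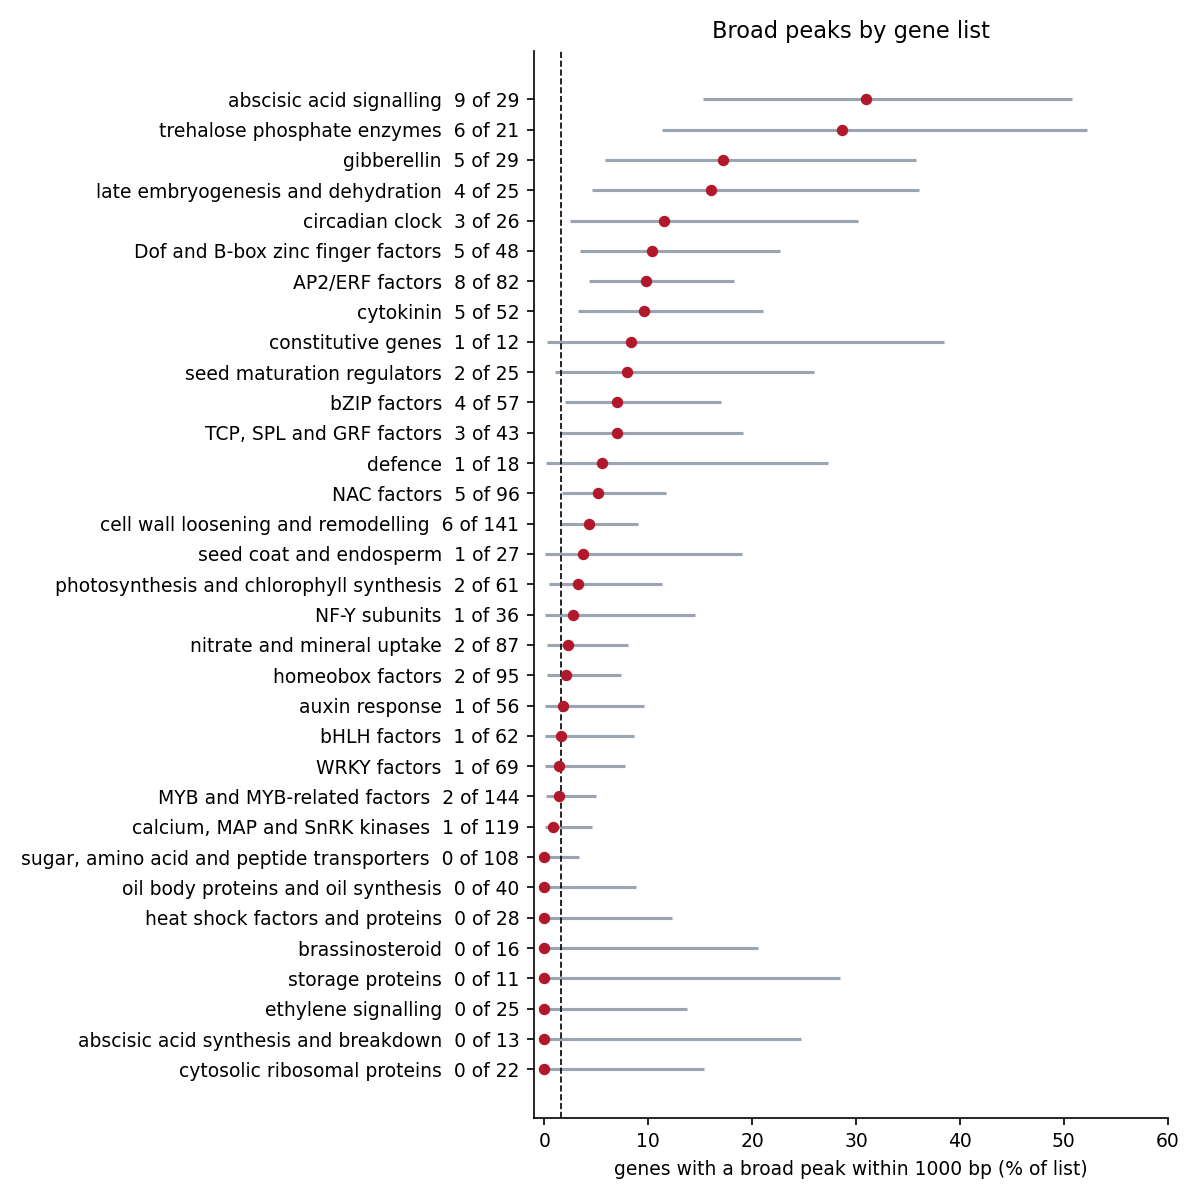
Share of the genes of each list (%) with a broad peak within 1000 bp; points are shares, lines are 95% exact binomial intervals, the dashed line is the 1.65% of all protein-coding genes, and each label ends with the count. Abscisic acid signalling (9 of 29) and trehalose phosphate enzymes (6 of 21) have the highest shares, and 8 lists have no broad peak.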

How the data were processed

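LEC1-GFP ChIP-seq and input libraries (2 biological replicates each) were made from chromatin sonicated to 100 to 500 bp with 15 cycles of PCR, per the labels' protocols. Bowtie 0.12.7, SAMtools 0.1.19 and the TAIR10 build are named in the submitters' processing notes. The sources used here name no peak caller or threshold and do not say whether replicates were pooled. The authors deposited 1 peak list with a score per peak, whose scale is not stated; it was used only to describe and rank peaks. Every start in the list was a multiple of 50 bp and every end 1 bp short of one, so both positions were read as counted from 0 and inside the peak, and both were raised by 1. Widths are therefore 1 bp more than end minus start, and read as a half-open BED file each peak would end 1 bp earlier.

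Gene positions, names and types came from a RefSeq table of TAIR10.1, so no gene position is printed; it gives no strand, exons or sequence. As a check, 33.9% of all midpoints lay inside genes, against 64.0% and 62.7% after a shift by 10000 bp to either side. A peak's place was read from its midpoint and its genes from its edges. Places were compared with two-sided Fisher's exact tests (SciPy 1.17.1), adjusted over 3 tests with a threshold of 0.05, and the calculation was tested on simulated data. No motif was searched and no gene list was tested.

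The broad peaks, the gene lists and the alternatives were chosen with earlier results of these data known, and list members with ambiguous symbols were corrected after the files had been read. Genes named are LEC1, NF-YB6, LEC2, FUS3, ABI3, ABI5 and DPBF2, those with a symbol at the 15 widest and 10 highest-scoring broad peaks, up to 4 per list with the widest broad peak, and the 2 highest-scoring peaks on each side of the limit. Any other gene in the text was picked with its values in view.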

Additional observations from a re-analysis of the deposited data

How the results depend on the processing

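No paired analysis was possible because the peak list holds no values per sample, and for the same reason no replicate could be left out. With peaks of at least 600 bp counted as broad, there were 231 broad peaks with 294 genes within 1000 bp, against 350 and 452; the counts under the other limits, distances and ways of assigning genes stayed within 1.5 times (304 genes with the nearest gene only, 656 at 500 bp). The lower share inside genes and the higher share outside within 1000 bp kept their direction and stayed past the threshold under both other width limits, among peaks scoring at or above the median and with all annotated genes. Against the 350 highest-scoring narrower peaks both lost their call, with differences of 0.00 and 2.86 percentage points. The share farther than 1000 bp away, -0.683 points for broad peaks and not called, changed sign to 0.696 points higher at 600 bp, 0.858 at 500 bp, 0.267 with all annotated genes and 2.62 with 500 bp in place of 1000 bp, none past the threshold. With 2000 bp it was -3.18 points and past it (adjusted p = 0.023, Fisher's exact test). Of 75 listed genes with a broad peak, 67 were counted by midpoint, 60 by nearest gene and 69 with the gene body left out, an alternative added after seeing the data. With the nearest gene only, the counts for nitrate and mineral uptake (2 to 0), cell wall (6 to 3), homeobox (2 to 1) and photosynthesis genes (2 to 1) moved by more than 1.5 times, and the other list counts did not, by nearest gene or by midpoint. The causes were not tested, and the depth of the libraries is unknown.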

Other observations

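Broad peaks also lay at several related genes outside the lists, named here after their values were seen and with no test. Over all protein-coding genes 1.65% had a broad peak and 24.6% had any peak. Of 4 LNK genes, which encode clock-regulated, light-induced proteins, LNK3 (AT3G12320) and LNK4 (AT5G06980) each had a broad peak of 650 bp, with scores of 4.07 and 4.05, whereas LNK1 (AT5G64170) had a peak of 400 bp and LNK2 (AT3G54500) none. Of 3 genes for inositol phosphate synthase, MIPS1 had a broad peak of 750 bp (score 3.46) and MIPS2 one of 550 bp (score 3.29). Of 5 alternative oxidase genes, AOX1A (1000 bp) and AOX2 (600 bp, score 3.16) had a broad peak.

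Of 40 LBD genes, which encode LOB-domain transcription factors, 4 had a broad peak (10.0%, beside 1.65% of all protein-coding genes). Any peak was found at 11 of the 40, beside 24.6% of all protein-coding genes. The 4 with a broad peak were LBD41 (850 bp, score 3.39), LBD42 (700 bp, score 2.57), LBD40 (600 bp, score 3.32) and ASL15, also called LBD17 (550 bp, score 3.07). Of 13 genes for plasma membrane aquaporins, PIP1A (700 bp, score 3.47), PIP3 (650 bp, score 3.15) and PIP2B (550 bp, score 2.96) had one.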
